A study of Sus scrofa with 95 samples.

Results

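The livers of infant pigs that had cardiopulmonary bypass together with the drug linrodostat were set against the livers of anesthesia controls, 4 livers against 8. These 12 libraries, picked by organ, procedure and drug as the sample titles give them, belong to 95 libraries made from 5 organs of 19 animals. In cardiopulmonary bypass (CPB) a machine takes over the work of heart and lungs, and here it was joined with deep hypothermic circulatory arrest (DHCA), in which the cooled body is left without blood flow. The linrodostat group had CPB/DHCA with 75 min of arrest and 75 mg of the drug (2 male and 2 female pigs). A second group of 7 pigs had CPB/DHCA with the same arrest and no drug (4 male, 3 female) and enters the shared fit and one comparison. The 8 control pigs had anesthesia without CPB/DHCA or drug (4 male, 4 female). All pigs weighed 5 to 10 kg, and strain, age in days, the time from arrest to sampling and the route of the drug are not given in the sources used here. No group received linrodostat without bypass, so bypass, arrest and drug cannot be told apart in the comparison with the controls. Livers were taken just after euthanasia, while kidney and ileum were taken just before it, and every liver and kidney library bears batch label 1.

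The liver makes cholesterol, bile acids, glucose, urea and most plasma proteins, and it clears hormones, drugs and gut-derived material from the blood. Its hepatocytes share the tissue with bile duct cells, endothelial cells, stellate cells and Kupffer cells, the resident macrophages of the sinusoids. Linrodostat blocks IDO1, which catalyses the entry of tryptophan into the kynurenine pathway. In liver that first step is run mainly by another enzyme, TDO2, and the pathway's end product feeds the synthesis of NAD.

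Levels are counts per 1e6 counts (CPM) after TMM scaling, and the values of the linrodostat livers are given in the order of animals 12, 18, 20 and 24. Total counts in units of 1e6 were 33.7 to 42.5 in the linrodostat livers, 27.8 to 43.2 in the CPB livers and 33.4 to 49.7 in the control livers. The tissue label held in all 12 libraries. ALB, which encodes albumin, reached 43877, 38741, 42402 and 47225 CPM in the linrodostat livers and 27604 to 54569 CPM in the controls, while 7 of 8 kidney tubule markers and 8 of 8 cardiomyocyte markers stayed under 1 CPM, before TMM scaling, in every one. Of 8 lung epithelial markers only 3 did so. The lung markers summed, before TMM scaling, to 26.6 to 80.3 CPM in the linrodostat livers and 50.5 to 117 CPM in the controls. The summed level of the 7 erythroid and platelet markers that passed the count filter was 182, 298, 350 and 197 CPM in the linrodostat livers and 23.3 to 4704 CPM in the controls, the highest in control animal 4. Positions given below are gene spans on Sscrofa11.1 from the RefSeq annotation, matched by symbol.

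Transcripts of genes that mark ileum among the sampled organs were found in every liver, at a higher summed level in the linrodostat livers. They were measured with 121 genes that in control ileum reach 50 CPM and at least 10 times their level in heart, kidney, lung and liver; their summed CPM in a liver was expressed as a percent of their summed CPM in control ileum. This ileal share was 1.16, 3.22, 1.42 and 1.57% in the linrodostat livers. It was 0.277 to 0.717% in the CPB livers and 0.378 to 1.02%, with a median of 0.705%, in the control livers. All 4 linrodostat livers lay above all 8 controls, and animal 18 was the highest. The means were 1.84 ± 0.932% (SD, n = 4) in the linrodostat livers and 0.696 ± 0.192% (SD, n = 8) in the controls, a difference of 1.14 points (exact two-sided permutation test, p = 0.00202, the smallest that 495 arrangements allow). Without animal 18 the difference was 0.686 points. The ratio to control ileum varied between genes. The enterocyte marker FABP6 had a mean of 58.7 CPM in the linrodostat livers and 3975 CPM in control ileum. For the enterocyte marker FABP2 these were 19.0 and 151 CPM. No other part of the gut was sampled. The samples do not say how transcripts of these genes came into liver RNA, and that was not tested.

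**Figure D1:**
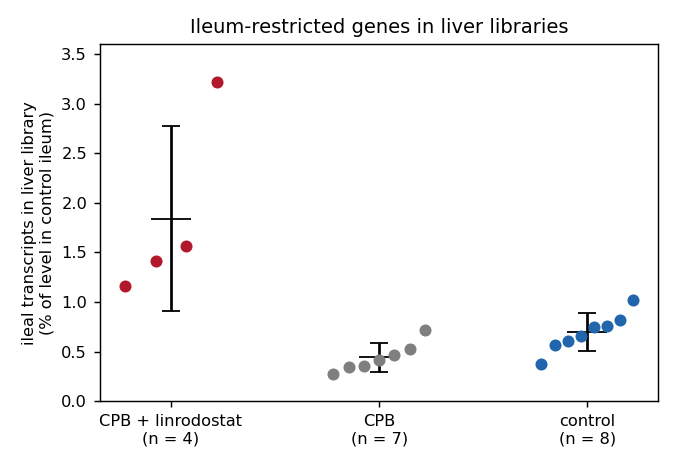
Ileal share of each liver library, in percent of the control ileum level of 121 ileum-restricted genes, for linrodostat, CPB and control livers from left to right; points are animals and bars the mean ± SD. The linrodostat livers lie between 1.16 and 3.22%, all above the highest control at 1.02%.

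FABP6, the bile acid binding protein of ileal enterocytes, had 39.6, 112, 29 and 54.1 CPM in the linrodostat livers, against 0.874 to 25.3 CPM, with a median of 8.97, in the control livers and 3975 CPM in control ileum. The groups did not overlap (log2 fold change 2.50 ± 0.69, adjusted p = 0.0168), although without animal 18 the gene no longer passed. SLC5A1, the sodium-glucose transporter of the brush border (chromosome 14, 48566400 to 48704145), had 8.26, 22.8, 9.61 and 12.6 CPM in the linrodostat livers, against 1.91 to 7.93 CPM, with a median of 3.56, in the controls, and again the linrodostat values were all higher (log2 fold change 1.80 ± 0.32, adjusted p = 0.00129). SI, the brush border sucrase-isomaltase, had 6.33, 33.7, 9.66 and 14.3 CPM in the linrodostat livers and 0.138 to 6.81 CPM, with a median of 1.48, in the controls. Here the lowest linrodostat liver fell inside the control range (log2 fold change 2.91 ± 0.70, adjusted p = 0.00765). ANPEP, a brush border peptidase that liver cells make too, had 84.3, 156, 130.2 and 144 CPM in the linrodostat livers and 80.1 to 246 CPM in the controls, and did not pass (log2 fold change -0.43 ± 0.33, adjusted p = 0.365). Of the 16 enterocyte markers tested, 10 rose and 0 fell, and of 9 markers of goblet, endocrine and stem cells 6 rose and 0 fell; without animal 18 these counts of higher genes were 3 and 1, and without animal 24 they were 5 and 3. The goblet cell peptide TFF3 had 6.28, 10.9, 4.21 and 4.74 CPM in the linrodostat livers and 0.0471 to 2.39 CPM in the controls (log2 fold change 2.62 ± 0.78, adjusted p = 0.0222), and it too did not pass without animal 18.

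Genes typical of ileum were therefore kept apart from the rest: those with at least 5 CPM in control ileum and at least 10 times their mean liver level, of which 1482 were tested. Over all 15406 genes tested, 3358 passed at an adjusted p under 0.05 (21.8%), 1990 of them higher (12.9%) and 1368 lower (8.88%) in the linrodostat livers; 1180 of those that passed differed at least 2-fold. Among the 13924 genes not typical of ileum 3098 passed (22.2%); 1785 rose (12.8%) and 1313 fell (9.43%). Among the 1482 typical of ileum, 205 rose (13.8%) and 55 fell (3.71%). The median log2 fold change was 0.00 in both sets. All 4 linrodostat livers lay above all 8 controls for 1211 genes (7.86%) and below them for 758 (4.92%). The set typical of ileum also holds 13 of 14 B and plasma cell markers and all 20 cell cycle genes tested. Of the 118 ileum-restricted genes tested, 76 rose and 1 fell, with a median log2 fold change of 2.06.

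The count of passing genes rested most on animal 24: without it 1857 genes passed, 1024 of them higher and 678 lower outside the ileum-typical set, and without animal 12 the lower ones numbered 855. The higher genes typical of ileum numbered 89 without animal 18 and 133 without animal 24. The ileal share separates the groups without overlap, so it cannot be told apart from the group; with its log2 as a covariate 960 genes passed. The text, closing observations included, names 87 passing genes that are not typical of ileum. All 87 kept their sign in each of the 20 alternatives run, 57 passed in every alternative other than that covariate, and 38 passed with the covariate.

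**Figure D2:**
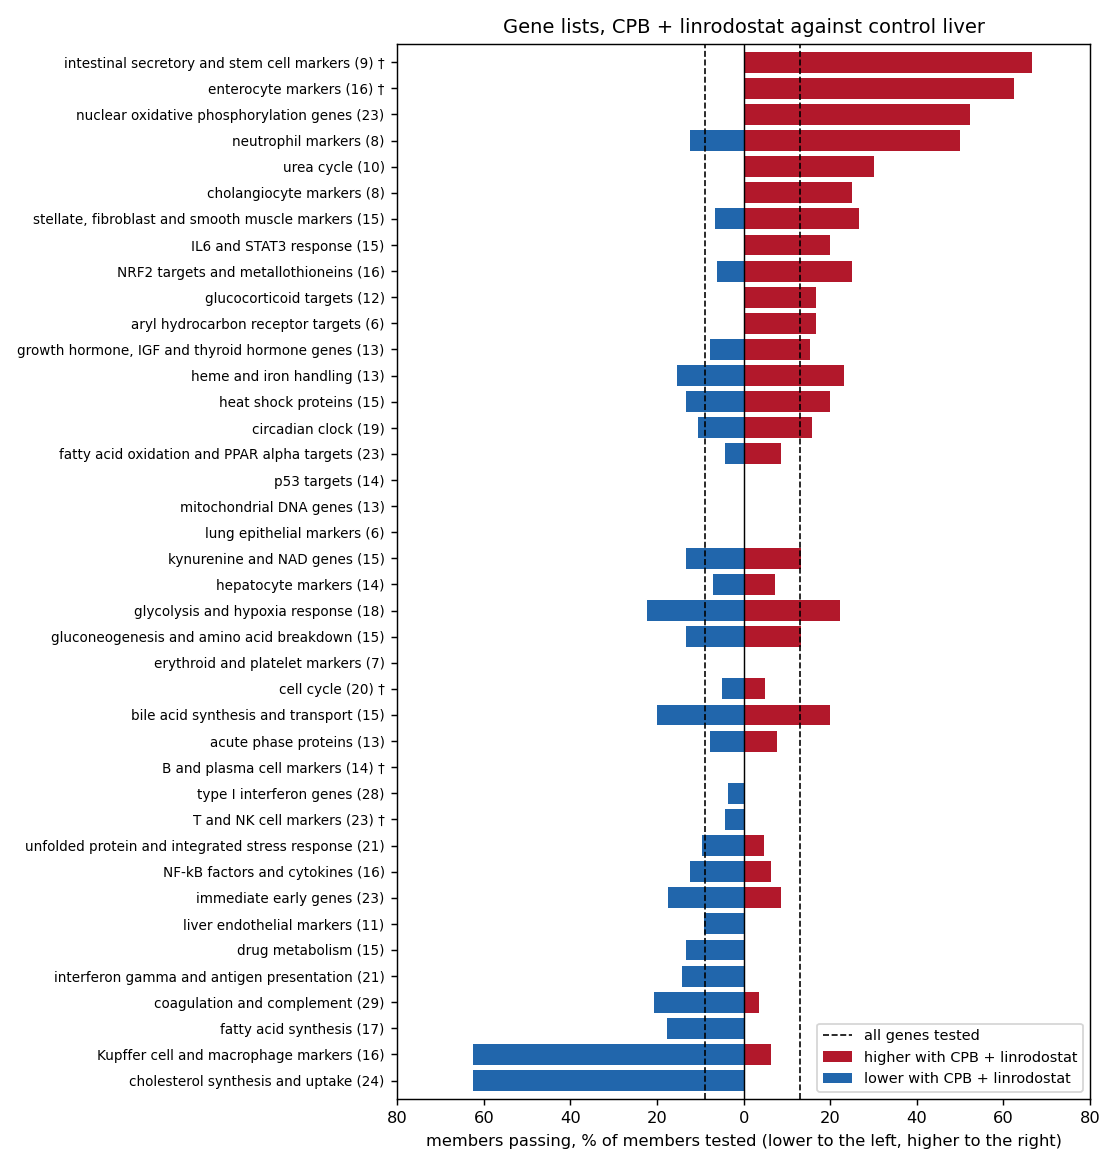
Percent of the tested members of each gene list that were higher or lower in linrodostat than in control livers at an adjusted p under 0.05, for lists with at least 5 tested members; dashed lines mark all tested genes (12.9% higher, 8.88% lower) and † marks lists in which over 50% of members are typical of ileum. Cholesterol genes (15 of 24) and macrophage markers (10 of 16) reach far past the dashed line on the lower side, and nuclear oxidative phosphorylation genes (12 of 23) on the higher side.

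Transcripts of the enzyme that linrodostat inhibits were few, and their level did not pass the test. IDO1 (chromosome 17, 9245283 to 9260140) had 0.864, 4.51, 1.28 and 0.335 CPM in the linrodostat livers, against a lowest value of 0.737, a median of 1.27 and a highest of 7.28 CPM in the controls. The groups overlapped (log2 fold change -0.17 ± 0.86, adjusted p = 0.909), and the sign turned when control animal 15, the highest library, or linrodostat animal 12 or 24 was left out. TDO2, the hepatic enzyme for the same reaction, had 1307, 861, 553 and 485 CPM in the linrodostat livers and 208 to 949 CPM, with a median of 536, in the controls (log2 fold change 0.48 ± 0.36, adjusted p = 0.353), with 1 linrodostat liver above all controls. Downstream, KMO did not pass (log2 fold change 0.27 ± 0.30, adjusted p = 0.549), nor did KYNU (log2 fold change -0.80 ± 0.32, adjusted p = 0.0841).

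HAAO, which makes the quinolinate precursor from 3-hydroxyanthranilate (chromosome 3, 97580756 to 97595033), fell. It had 19.3, 33.2, 53 and 52.5 CPM in the linrodostat livers, against 107 to 211 CPM, with a median of 148, in the controls, and every linrodostat liver was below every control (log2 fold change -1.97 ± 0.28, adjusted p = 0.000416). QPRT, the enzyme that draws quinolinate into NAD synthesis, was also lower, at 59.2, 106, 72.5 and 74.2 CPM in the linrodostat livers and 74 to 175 CPM, with a median of 132, in the controls (log2 fold change -0.76 ± 0.22, adjusted p = 0.0174), with overlapping ranges; it did not pass without animal 12, 20 or 24. The salvage enzyme NAMPT, which makes NAD from nicotinamide, had 116, 68.6, 89.4 and 117 CPM in the linrodostat livers and 31.7 to 65.9 CPM, with a median of 40.5, in the controls. All 4 values were above the controls (log2 fold change 1.19 ± 0.24, adjusted p = 0.00287). NNMT, which methylates nicotinamide, was higher too (log2 fold change 1.31 ± 0.44, adjusted p = 0.0392) but failed to pass in 10 of 20 alternatives. Over the 15 tested kynurenine and NAD genes 2 rose and 2 fell, not far from the shares over all genes (12.9% higher, 8.88% lower). Their median log2 fold change was -0.17, beside 0.00 over all genes. Of 6 targets of the aryl hydrocarbon receptor, which kynurenine can activate, 1 rose: CYP1B1 (log2 fold change 2.32 ± 0.49, adjusted p = 0.00332).

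**Figure D3:**
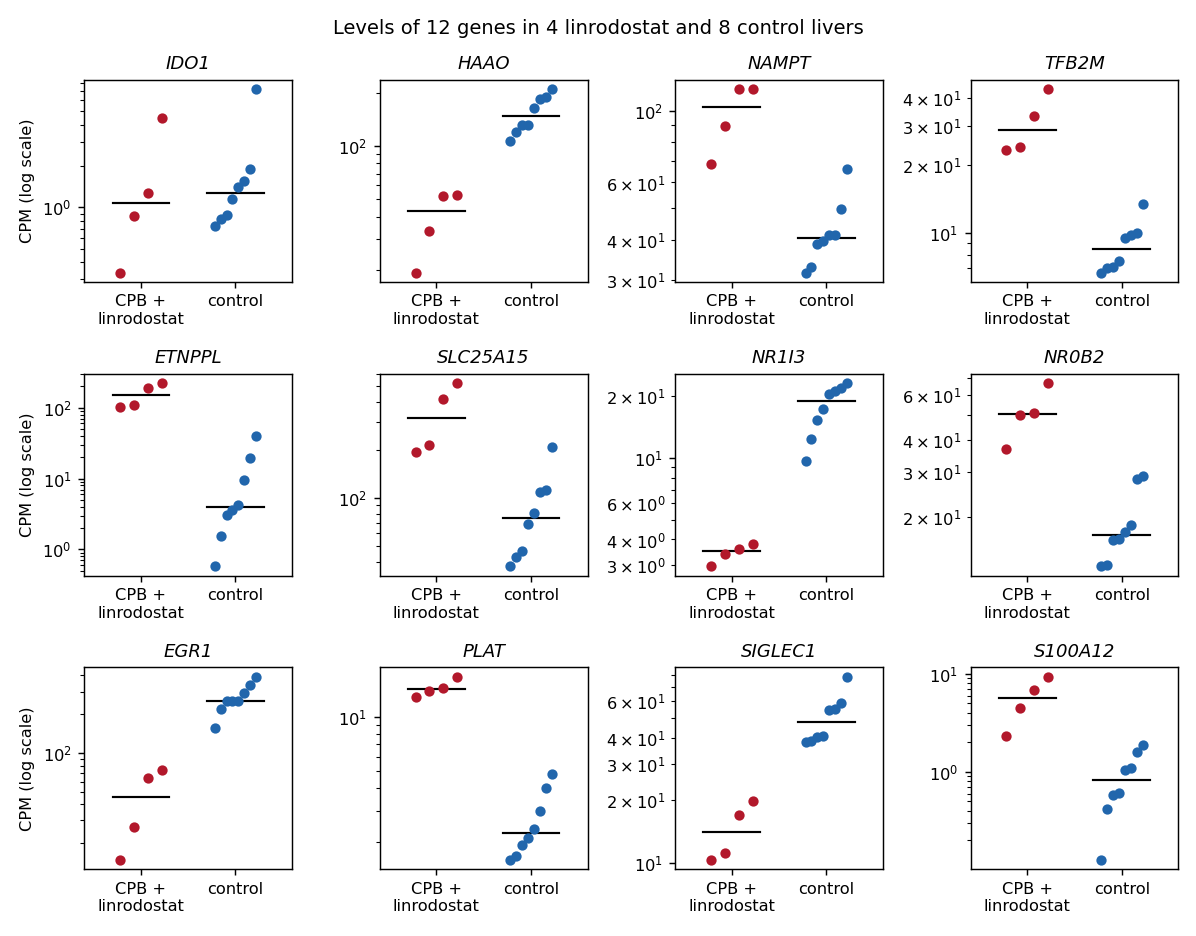
CPM on a log axis of 12 genes in each linrodostat liver (left) and each control liver (right), with a line at the median. IDO1 overlaps between the groups; HAAO, NR1I3, EGR1 and SIGLEC1 are lower and NAMPT, TFB2M, ETNPPL, NR0B2, PLAT and S100A12 higher in all 4 linrodostat livers, while SLC25A15 is higher with the ranges touching.

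The genes of cholesterol synthesis and uptake formed the list with the most lower members. Hepatocytes switch these genes together through the transcription factor SREBF2 according to the sterol content of their membranes. Of 24 genes, 15 fell, 0 rose and 23 had a log2 fold change below 0, with a median of -1.37. SQLE, squalene epoxidase, the second rate-limiting enzyme of the pathway (chromosome 4, 14669789 to 14700152), had 5.54, 8.96, 6.97 and 7.78 CPM in the linrodostat livers, against a lowest value of 16.6, a median of 78.1 and a highest of 135 CPM in the controls. No linrodostat liver reached the lowest control (log2 fold change -3.40 ± 0.50, adjusted p = 0.000505). FDFT1, squalene synthase (chromosome 14, 14976259 to 15010701), had 9.84, 22.5, 16.1 and 19 CPM in the linrodostat livers and 51.4 to 213 CPM, with a median of 125, in the controls (log2 fold change -2.88 ± 0.42, adjusted p = 0.000505). MSMO1, which removes methyl groups from the sterol ring, had 26.4, 21.9, 19.1 and 33.7 CPM in the linrodostat livers and 42.4 to 273 CPM, with a median of 162, in the controls (log2 fold change -2.57 ± 0.46, adjusted p = 0.00145). Both genes, like SC5D (log2 fold change -1.66 ± 0.31, adjusted p = 0.00163), which acts late in the pathway, had no overlap between groups.

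At the start of the pathway HMGCS1, which condenses acetyl units, had 11.5, 19, 17.9 and 22.2 CPM in the linrodostat livers and 14.2 to 196 CPM, with a median of 104, in the controls. It fell (log2 fold change -2.55 ± 0.52, adjusted p = 0.00304), but control animal 4 lay as low as the linrodostat livers. SREBF2 itself passed narrowly (log2 fold change -0.87 ± 0.31, adjusted p = 0.0486) and failed to pass in 15 of 20 alternatives. The summed level of the 24 genes was 1364, 1153, 1348 and 1854 CPM in the linrodostat livers. It was 1299 and 1532 CPM in control animals 14 and 4 and 2415 to 4108 CPM in the other 6 controls, so those 2 controls lay inside the linrodostat range. Leaving out single animals left 11 to 15 lower genes, and the ileal share as covariate left 4.

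**Figure D4:**
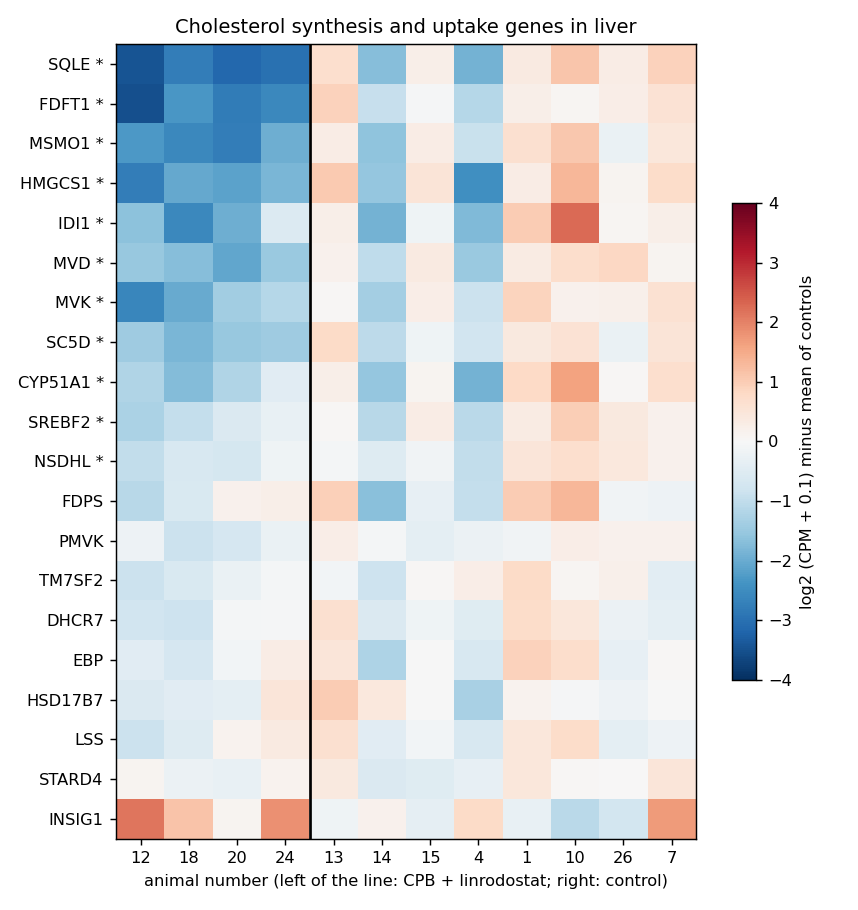
Log2(CPM + 0.1) minus the control mean for 20 of the 24 cholesterol genes (rows) in the 4 linrodostat livers (left columns) and the 8 control livers (right columns); an asterisk marks genes that passed. Most rows are low in all 4 linrodostat livers, and control animals 4 and 14 are also low in many rows.

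Some single genes that dispose of amino acid nitrogen and of fuel were higher. SLC25A15, the mitochondrial ornithine carrier of the urea cycle (chromosome 11, 15494176 to 15551172), had 418, 216, 194 and 527 CPM in the linrodostat livers, against 37.3 to 209 CPM, with a median of 74.5, in the controls. Only the highest control reached into the linrodostat range (log2 fold change 1.94 ± 0.36, adjusted p = 0.00187). ARG1, arginase, which releases urea, had 3599, 1901, 1532 and 3079 CPM in the linrodostat livers and a lowest value of 54.2, a median of 157 and a highest of 1707 CPM in the controls. The highest control, animal 4, lay among the linrodostat livers while the other 7 lay below them (log2 fold change 2.87 ± 0.67, adjusted p = 0.00708). CPS1, which starts the cycle, was higher as well (log2 fold change 1.32 ± 0.43, adjusted p = 0.0361) but failed to pass in 12 of 20 alternatives. Of 10 urea cycle genes 3 rose and 0 fell, with a median of 0.57, beside 12.9% higher and 8.88% lower over all genes. Without control animal 4 the count of higher urea cycle genes was 5.

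SDS, serine dehydratase, which turns serine into pyruvate, had 646, 26.5, 21.8 and 35.8 CPM in the linrodostat livers, against 0.55 to 11.9 CPM, with a median of 2.42, in the controls. All linrodostat values were higher, animal 12 by far the most (log2 fold change 5.65 ± 1.45, adjusted p = 0.0116), and without that animal the log2 fold change was 2.95 and did not pass. ETNPPL, an enzyme that breaks down phosphoethanolamine (chromosome 8, 113363047 to 113384783), had 108, 101, 225 and 190.1 CPM in the linrodostat livers and 0.575 to 39.3 CPM, with a median of 3.92, in the controls, again without overlap (log2 fold change 3.94 ± 0.81, adjusted p = 0.00332). GCGR, the glucagon receptor, had 137, 101, 133 and 118 CPM in the linrodostat livers and 186 to 271 CPM in the controls, all 4 below (log2 fold change -0.91 ± 0.18, adjusted p = 0.00225). PPARGC1A, a coactivator of gluconeogenic and mitochondrial genes, was higher (log2 fold change 1.86 ± 0.49, adjusted p = 0.0119), though not without animal 12. Over 15 genes of gluconeogenesis and amino acid breakdown 2 rose and 2 fell, not far from the shares over all genes (12.9% higher, 8.88% lower). The gluconeogenic enzyme PCK1 did not pass (log2 fold change 0.17 ± 0.75, adjusted p = 0.894). Without control animal 4 the higher genes of this list numbered 5, and without animal 12 there was 1.

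MLXIPL, a glucose-sensing transcription factor (log2 fold change -1.25 ± 0.33, adjusted p = 0.013), and DGAT2, which completes triglyceride synthesis (log2 fold change -1.63 ± 0.41, adjusted p = 0.00985), were lower. DGAT2 had 7.22, 14.2, 28.1 and 15.2 CPM in the linrodostat livers and 21.6 to 85.3 CPM, with a median of 48.6, in the controls, with 1 linrodostat liver inside the control range. Of 17 fatty acid synthesis genes 3 fell and 0 rose, with a median of 0.01, beside 8.88% lower and 12.9% higher over all genes. ABHD5, the activator of triglyceride lipase on lipid droplets (chromosome 13, 27006331 to 27053760), had 372, 312, 314 and 451 CPM in the linrodostat livers, against 81.3 to 159 CPM, with a median of 119, in the controls. Every linrodostat liver was far above every control (log2 fold change 1.57 ± 0.19, adjusted p = 0.000311). CPT1A, which brings long-chain fatty acids into mitochondria, was higher (log2 fold change 1.27 ± 0.32, adjusted p = 0.0101), though not without animal 24. Of 23 genes of fatty acid oxidation 2 rose and 1 fell, neither above the shares over all genes (12.9% higher, 8.88% lower). KLB, the hepatic co-receptor for the hormones FGF19 and FGF21, had 2.21, 2.15, 3.76 and 2.26 CPM in the linrodostat livers and 9.76 to 39.1 CPM, with a median of 21.3, in the controls, with no overlap (log2 fold change -3.04 ± 0.46, adjusted p = 0.000545).

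Among 18 genes of glycolysis and the response to low oxygen, 4 rose and 4 fell, beside 12.9% higher and 8.88% lower over all genes. Of the 18, 4 are typical of ileum, and among the other 14, 3 rose and 4 fell. The glycolytic enzymes PGK1 (log2 fold change 0.68 ± 0.13, adjusted p = 0.00237), ENO1 (log2 fold change 0.62 ± 0.18, adjusted p = 0.0169) and LDHA (log2 fold change 0.81 ± 0.18, adjusted p = 0.00464) were higher in all 4 linrodostat livers than in every control. LDHA, lactate dehydrogenase, had 81.4, 71.6, 57.4 and 79.8 CPM in the linrodostat livers and 25.5 to 56.5 CPM in the controls. P4HA1, a collagen prolyl hydroxylase induced by low oxygen in other settings, had 26.2, 28.5, 8.63 and 7.97 CPM in the linrodostat livers and 48.7 to 183 CPM, with a median of 76.9, in the controls. All 4 lay below the controls (log2 fold change -2.32 ± 0.65, adjusted p = 0.0167; not passing without animal 20 or 24), as did BNIP3 (log2 fold change -0.82 ± 0.21, adjusted p = 0.00965) and ERO1A (log2 fold change -0.72 ± 0.14, adjusted p = 0.00237). ENO1 did not pass without animal 24, and without animal 20 or 24 the lower genes of this list numbered 2.

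Nuclear genes of the mitochondrial respiratory chain were higher by small amounts. The chain is built from subunits encoded in the nucleus and 13 encoded in mitochondrial DNA. Of 23 nuclear genes 12 rose and 0 fell, with a median of 0.54, beside 12.9% higher and 8.88% lower over all genes. NDUFB6, a subunit of complex I, had 70.3, 34, 26.3 and 34.8 CPM in the linrodostat livers and 12.4 to 26.4 CPM, with a median of 21.7, in the controls (log2 fold change 1.03 ± 0.24, adjusted p = 0.00546). Its lowest linrodostat value lay just under the highest control. The summed level of the list was 3339, 2566, 1975 and 2520 CPM in the linrodostat livers and 1479 to 2259 CPM in the controls, highest in animal 12. Without that animal 3 of the 23 passed, without animal 18 it was 7, and with the ileal share as covariate 0, against 12. NDUFB5 (log2 fold change 0.89 ± 0.21, adjusted p = 0.00637) and NDUFB6 passed in every alternative but that covariate.

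TFB2M, a transcription factor that starts transcription of mitochondrial DNA (chromosome 10, 19028813 to 19046343), was among the 6 genes of smallest p. It had 43.9, 23.5, 24.3 and 33.3 CPM in the linrodostat livers, against 6.65 to 13.4 CPM, with a median of 8.48, in the controls, and the groups were well apart (log2 fold change 1.82 ± 0.23, adjusted p = 0.000311). Transcripts of mitochondrial DNA itself gave no call: 0 of 13 genes passed in edgeR, DESeq2 or limma-voom, 0 had an unadjusted p under 0.05, and their median log2 fold change was 0.07. In poly(A) libraries these transcripts are captured through short tails, and their level per mitochondrion was not measured.

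Regulators of bile acid and drug metabolism shifted in both directions. NR0B2 (SHP), a repressor of bile acid synthesis that the bile acid receptor NR1H4 (FXR) induces, had 50.3, 36.9, 67.1 and 51.2 CPM in the linrodostat livers, against 12.8 to 28.9 CPM, with a median of 16.9, in the controls (chromosome 6, 84225670 to 84228156). All 4 values were higher (log2 fold change 1.44 ± 0.28, adjusted p = 0.00203). NR1H4 was slightly higher (log2 fold change 0.61 ± 0.16, adjusted p = 0.00998), with no overlap, but not without animal 12. ABCB11, the pump that exports bile salts into bile, had 41.2, 52.7, 81.7 and 46.1 CPM in the linrodostat livers and 86.7 to 197 CPM, with a median of 155, in the controls, all 4 lower (log2 fold change -1.40 ± 0.31, adjusted p = 0.00462). CYP7B1, of the alternative pathway of bile acid synthesis, was lower without overlap (log2 fold change -1.12 ± 0.32, adjusted p = 0.0179), though not without animal 20 or 24. Of 15 bile acid genes 3 rose and 3 fell, beside 12.9% higher and 8.88% lower over all genes. SLC51B, 1 of the higher ones, is typical of ileum, and among the 13 not typical of ileum 2 rose and 3 fell.

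NR1I3 (CAR), a nuclear receptor that induces drug-metabolising enzymes (chromosome 4, 89226314 to 89231781), had 3.41, 2.96, 3.59 and 3.82 CPM in the linrodostat livers, against 9.67 to 23.2 CPM, with a median of 18.9, in the controls. No values overlapped (log2 fold change -2.36 ± 0.43, adjusted p = 0.0015). CYP3A29, the main drug-oxidising cytochrome of pig liver, was lower too (log2 fold change -1.45 ± 0.42, adjusted p = 0.0197), but it belongs to a family of near-identical genes whose reads can be split between members, and it did not pass without animal 12, 18 or 24. The other 13 drug metabolism genes tested did not pass, and the list's median was -0.37. HNF4A, the transcription factor that keeps hepatocytes differentiated (chromosome 17, 46783772 to 46847505), had 881, 473, 509 and 1084 CPM in the linrodostat livers and 264 to 341 CPM, with a median of 304, in the controls, all higher (log2 fold change 1.30 ± 0.27, adjusted p = 0.00302). The hepatocyte markers as a list moved little, with 1 of 14 higher, 1 lower and a median of -0.02. Over all genes 12.9% rose and 8.88% fell.

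NOCT, a rhythmic gene also called nocturnin (chromosome 8, 87885411 to 87909231), had 79.7, 17.3, 14.7 and 40.7 CPM in the linrodostat livers, against a lowest value of 0.989, a median of 1.89 and a highest of 4.88 CPM in the controls. Every linrodostat liver was above every control (log2 fold change 4.02 ± 0.70, adjusted p = 0.00139). PER1, a clock gene that glucocorticoids induce, had 151, 66.1, 24.6 and 64.8 CPM in the linrodostat livers and 5.21 to 26.4 CPM, with a median of 15.3, in the controls, where 1 linrodostat liver lay just inside the control range (log2 fold change 2.19 ± 0.45, adjusted p = 0.00323). FKBP5, another glucocorticoid target, had 387, 124, 57.4 and 116 CPM in the linrodostat livers and 29.1 to 58.5 CPM, with a median of 47.8, in the controls (log2 fold change 1.88 ± 0.48, adjusted p = 0.0113); without animal 12 its log2 fold change was 1.09 and did not pass. Of 12 glucocorticoid targets 2 rose and 0 fell, with a median of 1.04. Of 19 clock genes 3 rose and 2 fell. Neither count was far from the shares over all genes, of which 12.9% rose and 8.88% fell. NPAS2 was higher (log2 fold change 1.05 ± 0.20, adjusted p = 0.00212) and DBP (log2 fold change -1.57 ± 0.45, adjusted p = 0.0186) and NR1D1 (log2 fold change -1.80 ± 0.54, adjusted p = 0.0229) were lower, DBP not without animal 12 or 18 and NR1D1 not without 12, 20 or 24. The hour of sampling is not given in the sources used here, so time of day and group cannot be told apart.

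EGR1, an immediate early transcription factor (chromosome 2, 140440829 to 140445302), had 14.7, 73.3, 26.5 and 64.1 CPM in the linrodostat livers, against 157 to 393 CPM, with a median of 254, in the controls. All 4 values were lower (log2 fold change -2.60 ± 0.50, adjusted p = 0.00212). EGR2, a related factor, was likewise lower in all 4, with 0.686, 1.18, 0.852 and 0.753 CPM in the linrodostat livers and 2.39 to 7.19 CPM in the controls (log2 fold change -2.60 ± 0.54, adjusted p = 0.00332). Of 23 immediate early genes 4 fell and 2 rose, with a median of -0.51, against 8.88% lower and 12.9% higher over all genes; without animal 12 or 20 the lower genes numbered 2. The 2 higher genes, MYC (log2 fold change 1.03 ± 0.35, adjusted p = 0.0387) and CCN1 (1.13), failed to pass in 11 and 7 of 20 alternatives. The cold-induced RNA-binding proteins gave no call in edgeR, DESeq2 or limma-voom, and 1 of the 2 had an unadjusted p under 0.05. CIRBP had 36.1, 31.9, 54.8 and 34.1 CPM in the linrodostat livers and 24 to 65.6 CPM, with a median of 33.6, in the controls (log2 fold change 0.02 ± 0.26, adjusted p = 0.964), with a sign that turns under another scaling. RBM3 had 157, 186, 306 and 284 CPM in the linrodostat livers and 39.7 to 228 CPM, with a median of 101, in the controls (log2 fold change 0.97 ± 0.39, adjusted p = 0.0816).

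The stress gene lists had both higher and lower members, beside 12.9% higher and 8.88% lower over all genes. BAG3, a cochaperone of stressed cells, had 519, 243, 80.0 and 219.6 CPM in the linrodostat livers and 30.9 to 126 CPM, with a median of 68, in the controls, highest in animal 12 and inside the control range in animal 20 (log2 fold change 1.92 ± 0.44, adjusted p = 0.00578). Of 15 heat shock genes 3 rose and 2 fell, and without animal 12 it was 1 and 0. DNAJB9, a chaperone of the endoplasmic reticulum, had 193, 127, 142 and 165 CPM in the linrodostat livers and 34.5 to 79.8 CPM, with a median of 66.4, in the controls, all higher (log2 fold change 1.41 ± 0.23, adjusted p = 0.000888); it was the single higher gene among 21 of the unfolded protein and integrated stress response, where 2 fell. The subunits of glutamate-cysteine ligase, which makes glutathione, went opposite ways. GCLM, the modifier subunit, had 106, 71, 70.5 and 82 CPM in the linrodostat livers and 33.7 to 55.8 CPM, with a median of 42.4, in the controls, all higher (log2 fold change 0.90 ± 0.17, adjusted p = 0.0018). GCLC, the catalytic subunit, had 35.9, 49.9, 70.6 and 41.3 CPM in the linrodostat livers and 60.5 to 257 CPM, with a median of 122, in the controls, lower with overlap (log2 fold change -1.51 ± 0.43, adjusted p = 0.0186) and not passing without animal 12 or 24. HMOX1, heme oxygenase, was higher (log2 fold change 0.97 ± 0.31, adjusted p = 0.0328) but failed to pass in 9 of 20 alternatives. Of 16 NRF2 targets and metallothioneins 4 rose and 1 fell; without animal 12 or 20 the higher genes numbered 2 and without animal 24 there was 1.

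HAMP, which encodes the iron hormone hepcidin, had 1161, 759.6, 307 and 539 CPM in the linrodostat livers and 50.2 to 433 CPM, with a median of 201, in the controls (log2 fold change 1.54 ± 0.50, adjusted p = 0.0341). SLC40A1, the iron exporter that hepcidin removes from the cell surface, had 61.6, 96, 68.7 and 45.3 CPM in the linrodostat livers and 76.5 to 222 CPM, with a median of 154, in the controls (log2 fold change -1.20 ± 0.39, adjusted p = 0.0339). Both ranges overlapped, and HAMP failed to pass in 8 and SLC40A1 in 7 of 20 alternatives. In all, 3 of 13 iron and heme genes rose and 2 fell, beside 12.9% higher and 8.88% lower over all genes. Without animal 12 or 24 the higher ones numbered 0, and without animal 20 or control animal 7 there was 1.

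Among plasma protein genes, PLAT, tissue plasminogen activator (chromosome 17, 11195599 to 11223821), rose. It had 12.8, 14, 14.4 and 16.7 CPM in the linrodostat livers, against a lowest value of 1.59, a median of 2.25 and a highest of 4.77 CPM in the controls, with a wide gap between the groups (log2 fold change 2.43 ± 0.31, adjusted p = 0.000311). F11, coagulation factor XI, had 36.1, 80.7, 74.1 and 33.1 CPM in the linrodostat livers and 94.3 to 423 CPM, with a median of 150.2, in the controls, all 4 lower (log2 fold change -1.81 ± 0.45, adjusted p = 0.0098). Of 29 coagulation and complement genes 1 rose and 6 fell, with a median of -0.15, beside 12.9% higher and 8.88% lower over all genes. The lower genes numbered 1 without animal 12 or 20, 3 without animal 18 or control animal 1, and 2 without control animal 15 or 26. Of 13 acute phase genes 1 rose (HAMP) and 1 fell (A2M, -0.68, not passing in 9 of 20 alternatives). CEBPB, a transcription factor of the acute phase, was higher in all 4 livers (log2 fold change 1.27 ± 0.23, adjusted p = 0.00158) and was 1 of 3 higher genes among 15 of the IL6 and STAT3 response.

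Most markers of Kupffer cells and other macrophages fell. In bulk tissue, fewer cells of a type and less RNA per cell cannot be told apart. SIGLEC1, a sialic acid receptor of resident macrophages (chromosome 17, 31994505 to 32021239), had 17, 11, 19.9 and 10.3 CPM in the linrodostat livers, against 38.1 to 79 CPM, with a median of 47.8, in the controls. No linrodostat liver reached the lowest control (log2 fold change -1.80 ± 0.32, adjusted p = 0.00131). TIMD4, a receptor for dying cells, had 12.6, 8.99, 10.5 and 7.97 CPM in the linrodostat livers and 15.2 to 25.7 CPM in the controls (log2 fold change -0.98 ± 0.21, adjusted p = 0.00388). CLEC4F, a lectin of Kupffer cells, was lower without overlap (log2 fold change -1.72 ± 0.48, adjusted p = 0.0162), though not without animal 18 or 24. In all, 10 of 16 macrophage markers fell and 1 rose, beside 8.88% lower and 12.9% higher over all genes. Of the 16, 15 had a log2 fold change below 0. For 7 of them all 4 linrodostat livers lay below all controls, beside 4.92% of all genes. The marker that rose, LYZ (lysozyme), is typical of ileum. The scavenger receptors CD163 (log2 fold change -0.05 ± 0.32, adjusted p = 0.923) and MARCO (log2 fold change -0.43 ± 0.47, adjusted p = 0.543) did not pass. Summed over the 15 markers not typical of ileum, the level was 1667, 1480, 1508 and 1392 CPM in the linrodostat livers and 1658 to 3184 CPM, with a median of 2258, in the controls. Without animal 18 the lower markers numbered 5, without animal 24 there were 3, and with the ileal share as covariate 1.

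Of 8 neutrophil markers 4 rose and 1 fell, beside 12.9% higher and 8.88% lower over all genes. However, 1 of the higher ones, ARG1, is a urea cycle enzyme of hepatocytes. The lower marker is typical of ileum. Without ARG1 the summed level of the markers was 27.3, 23.8, 19.0 and 13.0 CPM in the linrodostat livers and 7.90 to 18.2 CPM in the controls, so the groups overlapped. S100A12, a calcium-binding protein of neutrophil granules (chromosome 4, 96225691 to 96227030), had 9.41, 6.83, 4.46 and 2.31 CPM in the linrodostat livers, against 0.125 to 1.9 CPM, with a median of 0.824, in the controls, all higher (log2 fold change 2.63 ± 0.49, adjusted p = 0.00173). S100A8 had 7.35, 6.89, 4.17 and 1.67 CPM in the linrodostat livers and 0.175 to 1.51 CPM, with a median of 0.555, in the controls, also all higher (log2 fold change 2.85 ± 0.49, adjusted p = 0.00115). IL1R2, a decoy receptor for interleukin-1, had 3.89, 2.99, 2.04 and 2.4 CPM in the linrodostat livers and 0.0731 to 0.996 CPM in the controls (log2 fold change 3.0 ± 0.56, adjusted p = 0.00174). CSF3R, the receptor for the neutrophil growth factor, did not pass (log2 fold change -0.06 ± 0.39, adjusted p = 0.927).

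Interferon-responsive genes mostly did not pass. All 28 type I interferon genes tested had a log2 fold change below 0, with a median of -1.20, yet 1 fell: STAT2, which carries the interferon signal to the nucleus. It had 180.4, 275, 231 and 177 CPM in the linrodostat livers, against 339 to 598 CPM, with a median of 406, in the controls, all lower (log2 fold change -0.98 ± 0.24, adjusted p = 0.00834). The summed level of the 28 genes was 999, 2744, 3416 and 1218 CPM in the linrodostat livers. In the controls it was 2009 to 16404 CPM, and animals 15 and 26 reached 16404 and 9633 CPM. DESeq2 called 9 of the 28, and edgeR called 7 without control animal 4, 4 without control animal 13, 3 without control animal 10 or 14, and 2 without linrodostat animal 18 or 20. IRF1, induced by interferon gamma (chromosome 2, 134776122 to 134783646), had 12, 37, 18.8 and 14.4 CPM in the linrodostat livers and 39.6 to 96.8 CPM, with a median of 65.7, in the controls, all lower (log2 fold change -1.65 ± 0.37, adjusted p = 0.0049). Of 21 genes of interferon gamma response and antigen presentation 3 fell and 0 rose, beside 8.88% lower and 12.9% higher over all genes. A log2 fold change below 0 was found for 19 of the 21. The count of lower genes was 8 without animal 18 or control animal 4, 1 without animal 20 or 24, 11 in DESeq2 and 6 in limma-voom.

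Of 23 T and NK cell markers, 13 of which are typical of ileum, 1 of the others fell (CD4, log2 fold change -0.65 ± 0.22, adjusted p = 0.0425). CD4 failed to pass in 9 of 20 alternatives. Of 14 B and plasma cell markers, 13 of which are typical of ileum, 0 passed in edgeR, DESeq2 or limma-voom and 0 had an unadjusted p under 0.05. Of 15 stellate, fibroblast and smooth muscle markers 4 rose and 1 fell, beside 12.9% higher and 8.88% lower over all genes. Of the 15, 5 are typical of ileum, and among the other 10, 3 rose and 1 fell. With the ileal share as covariate 0 of the 15 rose. PDGFRB, the platelet-derived growth factor receptor of stellate cells, had 70.6, 85.7, 101 and 96.3 CPM in the linrodostat livers and 47.1 to 72 CPM, with a median of 62.9, in the controls (log2 fold change 0.53 ± 0.14, adjusted p = 0.0107), with 1 linrodostat liver inside the control range. ACTA2, smooth muscle actin, had 45, 209.7, 443 and 265 CPM in the linrodostat livers and 36 to 149 CPM, with a median of 97.1, in the controls, low in animal 12 (log2 fold change 1.33 ± 0.45, adjusted p = 0.0396), and it failed to pass in 11 of 20 alternatives. Without animal 20 or 24 the higher genes of this list numbered 1, and without animal 18 or control animal 7, 10 or 14 there were 2.

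Set directly against the CPB livers without the drug, the linrodostat livers had few genes that passed, and 113 of these 119 were typical of ileum. Over all 15406 genes the 119 were 0.772%, with 117 higher (0.759%) and 2 lower (0.013%), and 1297 had an unadjusted p under 0.05. Among the 1482 genes typical of ileum 113 passed (7.62%), and among the 13924 others 6 passed (0.0431%), 4 higher (0.0287%) and 2 lower (0.0144%). SLC5A1 was 2.16 ± 0.33 higher on the log2 scale than in CPB livers (adjusted p = 0.00739) and FABP6 4.03 ± 0.76 (adjusted p = 0.0147). CORO2A, an actin-binding protein, had the smallest p (2.85 ± 0.35, adjusted p = 0.00101). It too is typical of ileum, with a mean of 203 CPM in control ileum, 2.42 CPM in the linrodostat livers and 0.330 CPM in the CPB livers. Without animal 18, whose ileal share was 3.22%, 1 gene passed; without animal 24, or CPB animal 2, 6, 11, 21 or 25, it was 65 to 74. When genes typical of ileum were removed before the fit, 0 passed in edgeR and 864 had an unadjusted p under 0.05. DESeq2 on all genes called 229 and limma-voom 157.

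Of the 6 genes not typical of ileum, 4 have a symbol. PIEZO1, a pressure-gated ion channel (chromosome 6, 914480 to 967113), had 19.4, 21, 24.2 and 20.2 CPM in the linrodostat livers, 9.15 to 17.6 CPM in the CPB livers and 10.4 to 16.2 CPM in the controls. Its log2 difference was 0.80 ± 0.17 from CPB (adjusted p = 0.0226) and 0.63 ± 0.16 from control (adjusted p = 0.01). TARS3, a threonyl-tRNA synthetase, had 10.3, 14.2, 8.38 and 10.3 CPM in the linrodostat livers, 14.8 to 29.9 CPM in the CPB livers and 23.1 to 55.4 CPM in the controls. Its log2 difference was -1.08 ± 0.24 from CPB (adjusted p = 0.0335) and -1.82 ± 0.24 from control (adjusted p = 0.000311). EHD1, an endosomal trafficking protein, was lower than in CPB livers (-0.86 ± 0.19, adjusted p = 0.0304) and did not pass against control (-0.23 ± 0.18, adjusted p = 0.371). ENPP7, an intestinal sphingomyelinase, was higher than in CPB livers (3.04 ± 0.70, adjusted p = 0.0417), at 0.941, 2.7, 2.15 and 2.12 CPM against 0.0872 to 0.372 CPM in the CPB livers. Its mean was 1.98 CPM in the linrodostat livers and 0.885 CPM in control ileum. These calls against CPB were not stable. Of 19 alternatives, PIEZO1 failed to pass in 11, including those without linrodostat animal 18, 20 or 24 or without CPB animal 2, 6, 11, 21 or 25. TARS3 failed in 9, including each linrodostat animal left out and CPB animals 2, 6 and 11. EHD1 failed in 10, including linrodostat animals 12, 18 and 24 and CPB animals 6, 11, 21 and 25. ENPP7 failed in 11, including linrodostat animals 18, 20 and 24 and each CPB animal left out, and turned sign in 1.

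The comparison of CPB with control shares the controls with that of linrodostat with control, so its values are only set beside them. Against the controls 4151 genes passed in the CPB livers (26.9%), 2404 of them higher (15.6%) and 1747 lower (11.3%). For SQLE the log2 difference from control was -3.40 ± 0.50 in linrodostat livers and -3.52 ± 0.40 in CPB livers. For HAAO these were -1.97 ± 0.28 and -1.15 ± 0.22, for NAMPT 1.19 ± 0.24 and 1.15 ± 0.21, for PLAT 2.43 ± 0.31 and 1.76 ± 0.27, and for EGR1 -2.60 ± 0.50 and -1.20 ± 0.37. Of the 24 cholesterol genes 15 fell in CPB livers, with a median of -1.28; of the 23 nuclear respiratory genes 18 rose, with a median of 0.57; and of the 16 macrophage markers 8 fell, with a median of -0.59. The direct log2 difference was -0.83 ± 0.27 for HAAO (adjusted p = 0.295) and -1.40 ± 0.47 for EGR1 (adjusted p = 0.319), neither of which passed.

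The kidney of the same animals served to ask which differences were larger or smaller in liver than in another organ. The linrodostat minus control difference was compared between liver and kidney in one fit of group means, which did not pair the organs by animal. In it 820 of 18227 genes passed (4.5%), 252 with a larger value in liver (1.38%) and 568 with a larger value in kidney (3.12%). With the animal as replicate block 799 genes passed, 612 of them shared. SQLE differed by -3.46 ± 0.47 in liver and 0.90 ± 0.38 in kidney, a gap of -4.35 ± 0.58 (adjusted p = 4.61e-05). FDFT1 differed by -2.94 ± 0.33 in liver and -0.14 ± 0.28 in kidney (gap -2.79 ± 0.41, adjusted p = 7.28e-05). Of the 24 cholesterol genes 11 passed, all with the lower value in liver, against 9 with the animal as replicate block, and the list's median in this fit was -1.42 in liver and 0.20 in kidney.

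**Figure D5:**
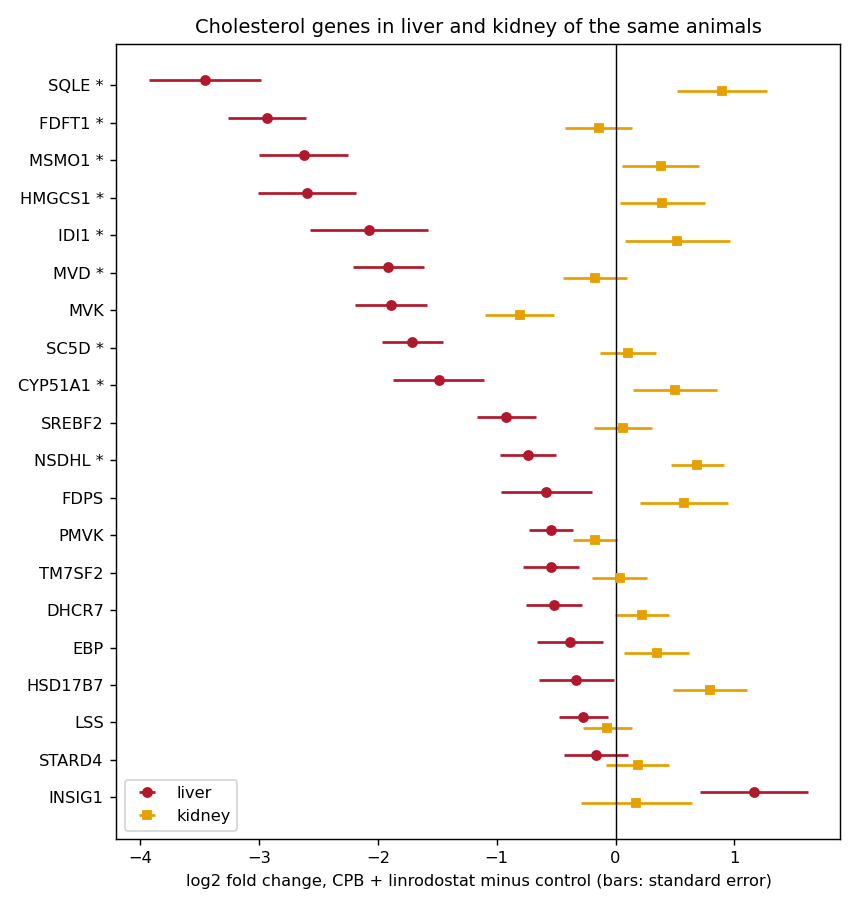
Log2 fold change (linrodostat minus control) ± SE of 20 of the 24 cholesterol genes in liver and in kidney, from the joint fit of both organs; an asterisk marks genes whose liver minus kidney difference passed. The liver values lie mostly below 0 and the kidney values around 0 (medians over all 24 genes -1.42 and 0.20).

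Several other genes differed between the 2 organs. ADGRG6, an adhesion receptor (chromosome 1, 22662009 to 22802166), had the smallest p: -1.69 ± 0.29 in liver and 2.13 ± 0.26 in kidney, a gap of -3.82 ± 0.40 (adjusted p = 2.95e-07). In liver it had 16.8, 23.2, 18.2 and 24 CPM in the linrodostat group and 38.4 to 79.1 CPM, with a median of 69.8, in the controls, with no overlap. EGR1 was -2.66 ± 0.49 in liver and 1.33 ± 0.42 in kidney (gap -3.99 ± 0.64, adjusted p = 0.000234), and 8 of 23 immediate early genes passed with the lower value in liver. HBEGF, a growth factor shed from cell surfaces, was -1.08 ± 0.29 in liver and 1.73 ± 0.26 in kidney (gap -2.82 ± 0.39, adjusted p = 6.32e-05). GCLC was -1.56 ± 0.39 in liver and 2.10 ± 0.34 in kidney (gap -3.67 ± 0.53, adjusted p = 7.28e-05). S100A10, an annexin partner, was -0.01 ± 0.15 in liver and 1.5 ± 0.14 in kidney (gap -1.5 ± 0.21, adjusted p = 6.61e-05). CA12, a membrane carbonic anhydrase, was 5.54 ± 0.64 in liver and -0.28 ± 0.60 in kidney (gap 5.82 ± 0.94, adjusted p = 0.000258). For IDO1 the gap was 1.56 ± 1.39 and did not pass (adjusted p = 0.631). The 9 markers of goblet, endocrine and stem cells had a median of 2.19 in liver and 2.56 in kidney, and 0 passed. Their rise was thus not particular to liver. For the 16 enterocyte markers the medians were 1.72 in liver and 0.54 in kidney, and 2 passed with the larger value in liver. The count of 820 fell to 326 without linrodostat animal 12, 496 without animal 18 and 513 without animal 20.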

How the data were processed

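Poly(A) RNA was sequenced, per the labels' protocols, as 150 bp paired reads on a NovaSeq instrument, from 200 ng of total RNA and the Universal Plus mRNA-Seq kit of Tecan. The authors deposited 1 table of expected counts (estimated read counts per Ensembl gene, unscaled) of 35670 genes in 95 libraries. Per the submitters' processing notes, STAR, Salmon, cutadapt, Trim Galore, MultiQC and bcl2fastq were used, with the build Sscrofa11.1; versions, the annotation release and the program that made the counts are not given in the sources used here. Salmon-type estimates can divide reads among near-identical genes. In the livers 94.2 to 95.9% of values were whole, and all were rounded. The table gives 17508 symbols, 223 came from a gene ID table, and 17939 genes have an ID alone.

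All 19 liver libraries were fitted together in R 4.3.3 with edgeR 4.0.16 (filterByExpr, TMM, robust glmQLFit, quasi-likelihood F test), with Benjamini-Hochberg adjustment over the 15406 genes tested and a threshold of 0.05. All tests are two-sided, and the SE of a log2 fold change is its size divided by the root of F. The biological coefficient of variation was 0.356, so for genes with many counts animal spread and not depth sets the precision. Genes with few counts, such as KCNB2 in the linrodostat livers, also carry counting noise. The 55 pairs of livers within a group differed by more than sampling noise (lowest chi-square per degree of freedom 118). Liver and kidney were fitted jointly (38 libraries); their numbers pair because the same animals gave both organs (median correlation of deviations 0.218, lowest 0.0309, over 19 animals). The procedure was also run on simulated counts with known changes. These held no effect of animal and no ileal share that differed between groups, so they cannot test those limits.

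The rule for named genes took, outside the ileum-typical set, the 10 highest and 10 lowest log2 fold changes at 2 CPM or more, the 6 smallest p, up to 4 passing genes of each list, the leading genes of the ileal set and of both other comparisons, and IDO1, TDO2, KMO, KYNU, CIRBP and RBM3. Not all are printed, and PCK1, SC5D, TFF3 and some other members given for context were chosen after their values were seen. Some single-gene results are not reported here. Members and lists were chosen with earlier results of these data known. Alternatives were relative log expression scaling, no count filter, sex as covariate, the compared groups alone, DESeq2 1.42.0, limma-voom (limma 3.58.1), the ileal set removed, the ileal share as covariate, and each animal left out.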

Additional observations from a re-analysis of the deposited data

Results flagged for a closer look

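A single library stood apart from its group in 15 of 216 sets of 4 or 8 values examined on the log2 scale, while chance gives about 1 in 20. Among the linrodostat livers, animal 12 had 646 CPM of SDS (next value 35.8) and 40.8 CPM of TMEM183A (next 27.7). Animal 18 had 6.43 CPM of SLC51B (next 3.01), and animal 20 had 3.76 CPM of KLB (next 2.26). Animal 24 had 64.9 CPM of CA12 (next 18.1) and 921 CPM of ENO1 (next 624). Among the controls, animal 4 had 1707 CPM of ARG1 (next 278) and 150 CPM of KMO (next 76.4). Control animal 15 had 7.28 CPM of IDO1 (next 1.89) and, as the lowest, 45.6 CPM of CD163 (next 80.4). Control animal 14 had 5.95 CPM of DBP (next 1.67) and, as the lowest, 50.2 CPM of HAMP (next 164). Control animal 13 was lowest for QPRT at 74.0 CPM (next 117) and for SLC40A1 at 76.5 CPM (next 149), and animal 26 was lowest for PAQR5 at 0.092 CPM (next 0.357).

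The difference between linrodostat and control animals was itself different between liver and kidney for 820 genes. The liver minus kidney value on the log2 scale was -3.82 for ADGRG6, -4.35 for SQLE, -2.79 for FDFT1, -3.0 for MSMO1, -2.82 for HBEGF, -1.5 for S100A10, -3.67 for GCLC, -3.99 for EGR1 and 5.82 for CA12.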

How the results depend on the processing

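With 4 animals in one group, single animals set several counts. Over leave-one-out fits (CPB animals left out too in the comparison with CPB) the total was 1857 to 3360, the higher genes outside the ileal set 1024 to 1843 and the lower ones 678 to 1321, the higher ileal genes 89 to 205, the genes between linrodostat and CPB livers 1 to 137, the liver and kidney count 326 to 855, and the ileal share difference 0.686 to 1.37 points. With the ileal share as covariate these were 960 in all, 632 higher, 277 lower, 1 higher ileal gene, and 0 between linrodostat and CPB (615 at an unadjusted p under 0.05 in edgeR). Of the 3358 genes, 862 were shared with that fit and 3320 kept their sign. The linrodostat and CPB count was 229 in DESeq2 and 0 with the ileal set removed (864 at an unadjusted p under 0.05). DESeq2 called 3921 genes against control (3295 shared), limma-voom 3328 (3125 shared) and the fit without a count filter 2536 (2452 shared). Other scalings moved the median of all genes by -0.03. No paired analysis was possible because linrodostat and control livers come from different animals; for liver against kidney, the animal as replicate block gave 799 genes, 612 of them shared.

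Signs turned for genes that had not passed and, under the covariate, for ileal genes and ENPP7. Leaving out single animals gave log2 fold changes of -1.24 to 0.543 for IDO1, -0.122 to 0.475 for KMO, -0.621 to 0.647 for PCK1, -0.522 to 0.14 for CD163, -0.216 to 0.149 for CSF3R, -0.171 to 0.172 for CIRBP and -0.0308 to 0.14 for S100A10. CIRBP was -0.00736 with relative log expression scaling, -0.00761 in DESeq2 and -0.0234 without a filter, and CSF3R 0.0479 in limma-voom. With the covariate, CD163 was 0.139, CSF3R 0.0255, PCK1 -0.387 and SI -0.0420 against control, and ENPP7 -0.393, FABP6 -0.0605, SI -0.779 and OLFM4 -0.293 against CPB. The cause was not tested.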

Other observations

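Among the genes of smallest p, DSTN, an actin-severing protein (chromosome 17, 25998830 to 26050354), had 114, 114, 151 and 103 CPM in the linrodostat livers, against 37.5 to 65.2 CPM, with a median of 47.3, in the controls, all higher (log2 fold change 1.34 ± 0.17, adjusted p = 0.000311). TMEM183A, a membrane protein (chromosome 9, 113713046 to 113726645), had 40.8, 27.7, 26.2 and 27.7 CPM in the linrodostat livers and 12.3 to 16.8 CPM, with a median of 14.9, in the controls, again all higher (log2 fold change 1.06 ± 0.12, adjusted p = 0.000311). CA12 had 16.8, 18.1, 15.1 and 64.9 CPM in the linrodostat livers and 0.141 to 2.07 CPM, with a median of 0.272, in the controls (log2 fold change 5.58 ± 0.86, adjusted p = 0.000724). SNED1, a matrix protein, had 14.2, 33, 25 and 38 CPM in the linrodostat livers and 1.3 to 7.69 CPM, with a median of 2.86, in the controls (log2 fold change 2.99 ± 0.62, adjusted p = 0.00371). None of these 4 genes overlapped between groups. CRTAC1, a cartilage matrix protein (log2 fold change 4.03 ± 0.62, adjusted p = 0.000635), and PAQR5, a membrane progestin receptor (log2 fold change 2.99 ± 0.49, adjusted p = 0.000964), were higher at low levels. The potassium channel gene KCNB2 (chromosome 4, 62877838 to 63306314) had 0.153, 0.431, 0.0224 and 0.195 CPM in the linrodostat livers and 1.63 to 4.04 CPM, with a median of 3.4, in the controls (log2 fold change -4.01 ± 0.60, adjusted p = 0.000505), and the estrogen receptor ESR1 had 0.356, 0.459, 0.515 and 0.223 CPM in the linrodostat livers and 1.17 to 6.28 CPM, with a median of 2.36, in the controls (log2 fold change -2.85 ± 0.54, adjusted p = 0.00176). All linrodostat values of both lay below the controls.

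Of 13 genes of growth hormone, IGF and thyroid hormone action 2 rose and 1 fell, near the shares over all genes (12.9% higher, 8.88% lower). GHR, the growth hormone receptor, was higher (log2 fold change 0.92 ± 0.29, adjusted p = 0.028), and so was DIO3, the deiodinase that inactivates thyroid hormone (log2 fold change 1.84 ± 0.55, adjusted p = 0.0221). THRB, the main thyroid hormone receptor of liver, had 4.17, 11.5, 6.54 and 6.41 CPM in the linrodostat livers and 6.45 to 37 CPM, with a median of 17.7, in the controls (log2 fold change -1.55 ± 0.47, adjusted p = 0.0257). GHR did not pass without animal 12 or 24, DIO3 not without 24, and THRB not without 12, 20 or 24. Of 14 p53 targets 0 passed in edgeR, DESeq2 or limma-voom, and 5 had an unadjusted p under 0.05.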
